A study of Dendrobaena veneta with 18 samples.

Results

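Gut of adult Dendrobaena veneta earthworms exposed to 10 mg/kg carbamazepine was compared with gut of worms exposed to 0.6 mg/kg. Worms of both groups lived for 28 days in moist topsoil that carried the drug in methanol, in the dark at 15 °C and with no food added. Control soil received methanol alone. RNA was measured by poly(A)-selected sequencing of gut tissue, 3 libraries per dose, with 2 control gut libraries and 9 libraries of the cerebral ganglion beside them. The reads were assembled without a genome, and the unit counted is an assembled gene, called a feature here. The comparison covers every feature with 10 or more counts in at least 2 of the 6 exposed gut libraries, which is 52285 of the 243619 features in the table and of the 139466 above 0 in any of the 6. The 6 libraries are 6 of the 18 labelled samples. Control gut replicate 1 was not analysed here, since it has no column. Whether a replicate is 1 animal or a pool is not stated in the labels, so each p-value measures the spread between these samples alone, which may be technical.

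The gut of an earthworm secretes digestive enzymes, absorbs nutrients and is the surface that swallowed soil, with any drug in it, meets first. Around it lies the chloragogenous tissue, which stores and detoxifies, and which a gut dissection can take along. Carbamazepine is an anticonvulsant that blocks voltage-gated sodium channels, and in humans it is broken down by cytochrome P450 enzymes of the liver and raises their expression. The files do not pair the features with gene names, descriptions or sequences, so no feature below is given a function, and whether genes of drug metabolism, digestion or defence are among them was not analysed here.

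The 6 libraries held 12967310 to 18285270 counts, with high dose 2 the deepest. Their features were not 6 independent pictures of gut. Low dose 1 and 3 had a Spearman correlation of 0.967 over the features compared, and only 2 features went from 50 counts or more to 0 between them. High dose 1 and 3 had a correlation of 0.959 and 9 such features. All other pairs within a dose had 342 to 547 such features and correlations of 0.778 to 0.801. Pairs of different doses had correlations of 0.737 to 0.805, the highest between low dose 2 and high dose 2. The presence or absence of 2740 features tied the libraries to ganglion libraries in the same way: low dose gut 1 and 3 both matched ganglion low dose 1 with a presence correlation of 0.809, and high dose gut 1 and 3 both matched ganglion high dose 2, with 0.748 and 0.771. Low dose gut 2 matched ganglion low dose 2 (0.677) and high dose gut 2 matched ganglion high dose 1 (0.695). No other correlation with a low or high dose ganglion passed 0.174, and control ganglia were not compared. The 6 libraries are therefore treated as 4 worms by resemblance, 2 per dose, and the main test averaged each pair. Ganglion replicate 3 of either dose matched none of these gut libraries, and both are taken as worms outside the gut comparison. Control guts were not compared with the ganglia.

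Taken feature by feature, no difference between the doses passed the test when each worm counted once. Of the 52285 features 0 were called (0%) at an adjusted p under 0.05 by edgeR's quasi-likelihood test with 2 samples against 2, and the smallest adjusted p was 0.431. With no adjustment, 3065 features (5.86%) had a p under 0.05, 1483 higher and 1582 lower at the high dose, where 5% of those tested is 2614. The median fitted log2 fold was -0.01, and its median size regardless of sign was 0.51. The biological coefficient of variation between worms of a dose was 67.5%, with 2 residual degrees of freedom.

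The number called depended on how the libraries were counted, on the filter and on the tool. With all 6 libraries entered as separate samples edgeR called 403 features (0.771%), 176 higher (0.337%) and 227 lower (0.434%) at the high dose, and with averaged pairs but no filter on low counts 3258 of 132409 (2.46%). With only the low dose pair averaged it called 0, with a smallest adjusted p of 0.0618. DESeq2 on the same 4 averaged samples called 912 (1.74%), 458 higher (0.876%) and 454 lower (0.868%), and 4564 (8.73%) with 6 separate libraries. Both edgeR on 6 libraries and DESeq2 on averaged pairs called 362 of the same features, which is 89.8% of the first list and 39.7% of the second. Of the 403 features 166 (41.2%) were at 0 in all 3 libraries of 1 dose, and 445 (48.8%) of the 912, against 4.57% of all features. The worms within the higher dose group of the 403 were close to each other, since the lower of both worms stood at 50% or more of the higher one in 86.4% of them, against 62.6% of all features. Of the 912 that share was 47.1%, and in 254 the lower worm stood under 10% of the higher one.

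The feature of smallest p on the higher side was DN106284_c3_g1, with 691, 805 and 842 counts in high dose gut 1, 2 and 3 and 0 in all 3 low dose and both control guts. As CPM, that is counts per 1000000 of the TMM-scaled library total, the high dose libraries stood at 55.8, 65.7 and 56.5. Counting each worm once, high dose gut stood at 60.9 ± 6.72 CPM (SD, n = 2), at least 344-fold above low dose gut, where the floor is 3 counts per library. The adjusted p was 0.431 in edgeR's quasi-likelihood test. In the ganglia it had 498, 697 and 562 counts at the high dose, 0, 4 and 0 at the low dose, and 0, 454 and 0 in the controls, so a worm without the drug also carried it.

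DN97773_c4_g2 stood at 645, 709 and 727 CPM in the high dose guts, against 3, 0 and 2 counts in the low dose guts. Control guts stood at 754 and 1735 CPM, above the high dose guts, so it is the low dose guts that were near 0. Its fitted log2 fold was 13.34 (SE 1.04, adjusted p = 0.431 by edgeR). Ganglion low dose 1 and 2, the partners of the low dose guts, had 242 and 313 counts. Ganglion low dose 3, which matched no exposed gut library, had 83449. The high dose ganglia had 28527 to 52049 and the control ganglia 23351 to 148703.

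On the lower side, DN81528_c0_g1 stood at 47.2, 49.5 and 50.1 CPM in the low dose guts and at 0.242, 0.408 and 0.671 in the high dose guts. The control guts stood apart from each other, at 35.7 and 4.69 CPM. The means over worms were 49.1 ± 0.596 CPM (SD, n = 2) at the low dose and 0.432 ± 0.0345 (n = 2) at the high dose, and the log2 fold was -6.82 (SE 0.35, adjusted p = 0.431 by edgeR). No ganglion library held more than 2 counts of it.

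DN88869_c4_g1 stood at 103, 106 and 102 CPM in the low dose guts and at 3.96, 2.28 and 2.75 CPM in the high dose guts. Both control guts, at 3.73 and 3.63 CPM, lay in the high dose range, so the low dose guts were the ones that stood apart. The log2 fold was -5.22 (SE 0.38, adjusted p = 0.431 by edgeR). In all 9 ganglia it held between 77 and 114 counts, with low dose ganglia at 114, 96 and 113 and high dose ganglia at 79, 84 and 103.

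Counted without a test, 122 features (0.233%) were at 0 in all 3 libraries of 1 dose and at 50 counts or more in every library of the other. Of these 49 (0.0937%) were at 0 at the low dose and 73 (0.14%) at 0 at the high dose. The number was 302 with 20 counts or more and 59 with 100 or more. For comparison, single libraries of 2 worms of 1 dose differed in 342 to 547 features in this way and single libraries of different doses in 508 to 1262. In 20 of the 49 both control guts stood no higher than the low dose range and in 6 no lower than the high dose range. In 22 the controls differed in position, where a control between the doses counts as a position of its own. Of the 73, both controls lay within or below the high dose range in 19 and within or above the low dose range in 8, and they differed in position in 41.

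The clearest of the features at 0 in low dose gut were DN104298_c2_g2 and DN87696_c3_g2. The first stood at 66.6, 124 and 66.7 CPM in high dose gut 1, 2 and 3, at least 538-fold above the low dose. The second stood at 104, 60.1 and 108 CPM, at least 469-fold above it. Both were at 0 in both control guts. Their partner ganglia, high dose 1 and 2, held 1205 and 1266 counts of the first and 395 and 791 of the second, while ganglion high dose 3 held 0 of either. The high dose ganglion that matched no exposed gut library therefore lacked both.

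DN94639_c2_g3 and DN99089_c4_g1 were the clearest features at 0 in high dose gut. DN94639_c2_g3 stood at 47.7, 31.1 and 48.9 CPM in the low dose guts, at least 173-fold above the high dose, with 189 counts in control gut 2, 0 in control gut 3 and 0 in all 9 ganglia. DN99089_c4_g1 stood at 66.7, 29.1 and 71.0 CPM, at least 213-fold above the high dose, with 661 and 0 counts in the control guts. As CPM, control gut 2 lay within the low dose range for DN99089_c4_g1, at 48.4, and between the doses for DN94639_c2_g3, at 13.8. Control gut 3 stood with the high dose for both. With 6 separate libraries the 8 features named so far had adjusted p of 0.00805 to 0.0196 by edgeR, against 0.431 with each worm counted once. DESeq2 on the same averaged pairs gave them adjusted p of 4.2e-10 or less.

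**Figure D1:**
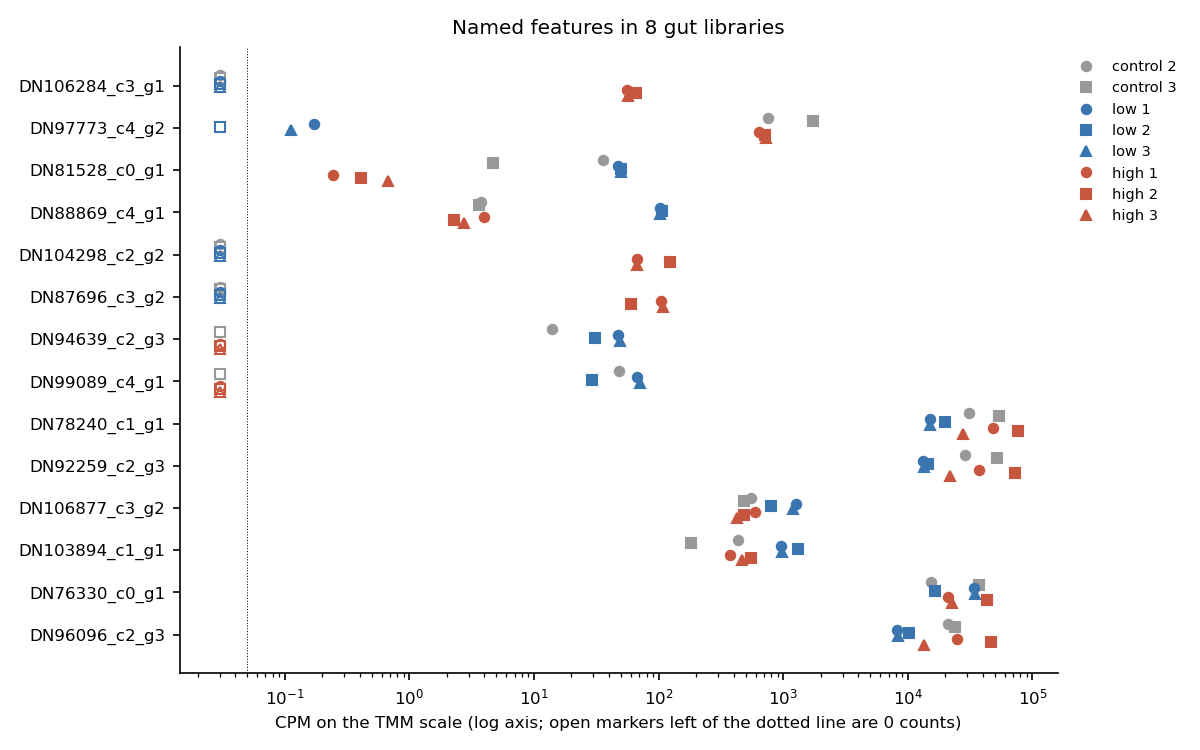
Level of the named features in each of the 8 gut libraries, in CPM on a log axis, with control libraries in grey, low dose in blue and high dose in red; open markers are libraries with 0 counts. In the upper 8 features the 3 high dose libraries lie far from the 3 low dose libraries. The control libraries lie with either side, on both as in DN99089_c4_g1, or between the doses as in DN81528_c0_g1.

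On the TMM scale, more of the abundant features were higher at the high dose than lower. Of the 100 features with a mean above 1000 CPM, 83 had a higher fitted level at the high dose, with a median log2 fold of 0.80, and 628 of the 844 between 100 and 1000 CPM were higher too, with a median of 0.32. These classes rest on the mean over the same 6 libraries, so a feature can enter one through the dose where it is high. How much of the excess comes from this was not tested. Over all features tested 49.4% were higher and the median was -0.01. Scaling by library totals alone shifted the median of all features to -0.55. Under it 58 of the 100 most abundant features were higher, with a median 0.81 above that of all features, while the class from 100 to 1000 CPM turned direction, with 278 of 844 higher and a median of -0.24. The medians of the most abundant features rest in part on high dose 2: without it the median of the 100 was 0.45 and that of all features -0.04. The 100 were still those chosen with high dose 2 included. In such bulk tissue more cells of a type and more RNA per cell cannot be told apart.

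DN78240_c1_g1 took more counts than any other feature in control gut and in all 3 high dose guts. It stood at 14949, 19844 and 14922 CPM in low dose gut 1, 2 and 3, and at 48076, 76470 and 27601 CPM in high dose gut 1, 2 and 3, so the groups did not overlap. Its log2 fold was 1.71 (SE 0.93, adjusted p = 0.888 by edgeR). The control guts stood at 31029 and 53688 CPM, within the high dose range, and no ganglion held more than 34 counts. Per length, the deposited FPKM averaged 37706 over the low dose and 77948 over the high dose guts.

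DN92259_c2_g3 did not overlap between the doses either, with 13271, 14594 and 13367 CPM at the low dose and 36934, 71814 and 21823 CPM at the high dose. Its log2 fold was 1.85 (SE 0.94, adjusted p = 0.883 by edgeR), and the controls stood at 28567 and 52310 CPM. DN96096_c2_g3 stood at 8245, 10144 and 8346 CPM at the low dose and at 24842, 46073 and 13399 CPM at the high dose, and its log2 fold was 1.81 (SE 0.88, adjusted p = 0.878 by edgeR). In all 3 of these gut features, high dose 2 was the highest and high dose 3 the lowest of the high dose libraries, although high dose 1 and 3 match as 1 worm. Without high dose 2 the log2 folds of DN78240_c1_g1, DN92259_c2_g3 and DN96096_c2_g3 were 1.10, 1.05 and 1.02. DESeq2 on averaged pairs gave them adjusted p of 0.0469, 0.0474 and 0.0596. DN76330_c0_g1, abundant in gut and ganglion alike, overlapped between the doses, at 34150, 16644 and 34312 CPM against 21140, 43395 and 22542 CPM.

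The 2 most abundant features that were lower at the high dose without overlap were less abundant. DN106877_c3_g2 stood at 1265, 795 and 1189 CPM at the low dose and at 594, 488 and 426 CPM at the high dose, a log2 fold of -1.03 (SE 0.43, adjusted p = 0.862 by edgeR). DN103894_c1_g1 stood at 956, 1304 and 976 against 377, 548 and 467 CPM, a log2 fold of -1.22 (SE 0.43, adjusted p = 0.842 by edgeR). The control guts stood at 547 and 488 CPM for the first and at 431 and 182 CPM for the second, within or below the high dose range.

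Features restricted to gut took a larger share of the counts at the high dose. The set was drawn from control worms alone, with at least 20 CPM in both control guts and at least 20 times the highest control ganglion, and held 839 features, 835 of them among those tested. These features took 26.9%, 28.6% and 27.1% of the counts in low dose gut 1, 2 and 3, and 42.9%, 52.0% and 33.3% in high dose gut 1, 2 and 3. The groups did not overlap, and the control guts, which defined the set, stood at 40.7% and 47.9%. With each worm counted once the shares were 27.8% ± 1.10 (SD, n = 2) and 45.1% ± 9.88 (n = 2), a difference of 17.3 percentage points. The exact permutation test, two-sided, gave p = 0.333 for 2 worms against 2, the smallest it allows, and p = 0.1 for 3 libraries against 3, again the smallest. Without high dose 2 the difference was 10.3 percentage points.

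Within that set 678 features had a higher and 157 a lower fitted level at the high dose, with a median log2 fold of 0.68 against -0.01 over all features. With library totals alone 491 of the 835 were higher, and the median stood 0.73 above that of all features. Without overlap and with group means 4-fold or more apart were 33 of the 835 on the higher and 4 on the lower side. These are 3.95% and 0.479% of the set, against 3.06% and 5.33% of all features. The shares over all features varied with abundance, with 1.59% higher and 1.03% lower from 10 to 100 CPM. From 100 to 1000 CPM they were 4.38% and 0.711%. How much of the set's difference from all features goes with abundance was not tested. Of the 30 features most abundant in control gut, 23 of which belong to the set, 28 were higher at the high dose with a median log2 fold of 1.52, and 17 did not overlap between the doses, all on the higher side. Over all features 24.7% did not overlap, 11.2% on the higher side and 13.5% on the lower. With library totals alone 22 of the 30 were higher, with a median of 0.84. These 30 features took 18.9% to 20.3% of the counts at the low dose and 28.3%, 38.4% and 21.5% in high dose gut 1, 2 and 3. Without high dose 2 their median log2 fold was 0.74, with 24 of 30 higher.

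The reverse set held features restricted to the control ganglion. Its 222 features took 0.0715% ± 0.0111 of the counts (SD, n = 2) at the low dose and 0.0795% ± 0.0436 (n = 2) at the high dose, against 4.61% to 12.2% in the control ganglia. The difference of 0.00796 percentage points had p = 1 in the exact permutation test, and it turned to -0.0228 without high dose 2 and to -0.113 for a set at 5 CPM and 5 times. High dose 2 was the highest at 0.110% and high dose 1 the lowest at 0.0444%. Of the 125 features of this set among those tested, 88 had a higher and 37 a lower fitted level at the high dose. Their median log2 fold was 0.60, so the excess of higher folds was not particular to the gut-restricted set.

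**Figure D2:**
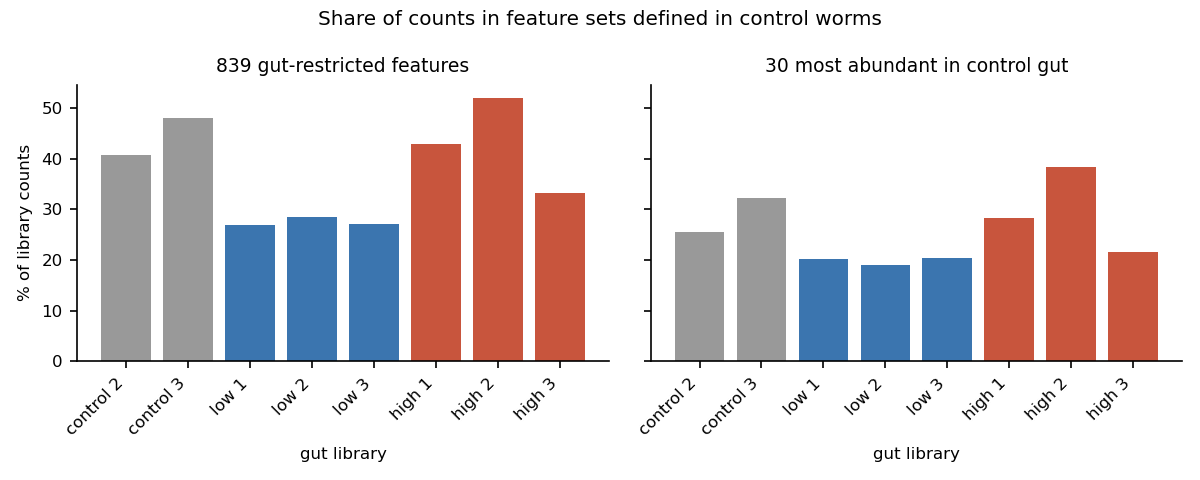
Percent of each gut library's counts that fell on the 839 gut-restricted features (left) and on the 30 features most abundant in control gut (right), one bar per library, control in grey, low dose in blue and high dose in red. The low dose bars are level at 26.9% to 28.6% on the left, and the high dose bars spread from 33.3% to 52.0%.

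The share of counts taken by the 100 top features of each library moved with this. It was 32.5% to 32.7% in the low dose guts and 41.5%, 53.6% and 35.5% in high dose gut 1, 2 and 3, and the TMM factors were 1.20 to 1.25 and 0.954, 0.670 and 1.08. Their part in the differences of less abundant features was not tested.

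All 3 high dose libraries lay above or below all 3 low dose libraries, with group means at least 4-fold apart, in 4388 features (8.39%), 1601 higher (3.06%) and 2787 lower (5.33%) at the high dose. On the deposited FPKM, which carries no such factor, the split was 1121 higher and 4046 lower, and on library totals 1130 and 4012. At 2-fold the number was 7747 (14.8%) and at 8-fold 2987 (5.71%). Without low dose 2 the 4-fold number was 7595 and without high dose 2 it was 7570, since then 1 dose is held by 2 libraries of 1 worm. Leaving out any of the other 4 libraries gave 4508 to 4929.

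These 4-fold features were more frequent among scarce and short features. They made up 15.6% of features under 1 CPM, 6.90% from 1 to 10 CPM, 2.62% from 10 to 100, 5.09% from 100 to 1000 and 8% of the 100 features above that. A scarce feature of this kind passes the filter of 10 counts mostly through the dose where it is high. The filter also reaches lower in low dose gut, where 3 counts per library are 0.177 CPM, than in high dose gut, at 0.229 CPM. What the filter adds to these shares and to their direction was not tested. Among the features under 1 CPM, 1580 of this kind were lower and 630 higher at the high dose. Of the 944 features above 100 CPM, 45 were higher and 6 lower in this way. DN93986_c0_g7 and DN90208_c3_g3, chosen after their values were seen, are among the 45 mostly through high dose 2, at 8880 and 5854 CPM. They stood at 294 and 204 CPM in high dose 1 and at 53.2 and 31.7 CPM in high dose 3. How many of the 45 rest on high dose 2 in this way was not counted. By length, taken from the ratio of counts to FPKM, the 4-fold features made up 12.5% of features under 300 bases and 2.06% of those over 3000 bases. The median length was 699 bases for the higher and 660 for the lower ones, against 1087 bases for all features.

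**Figure D3:**
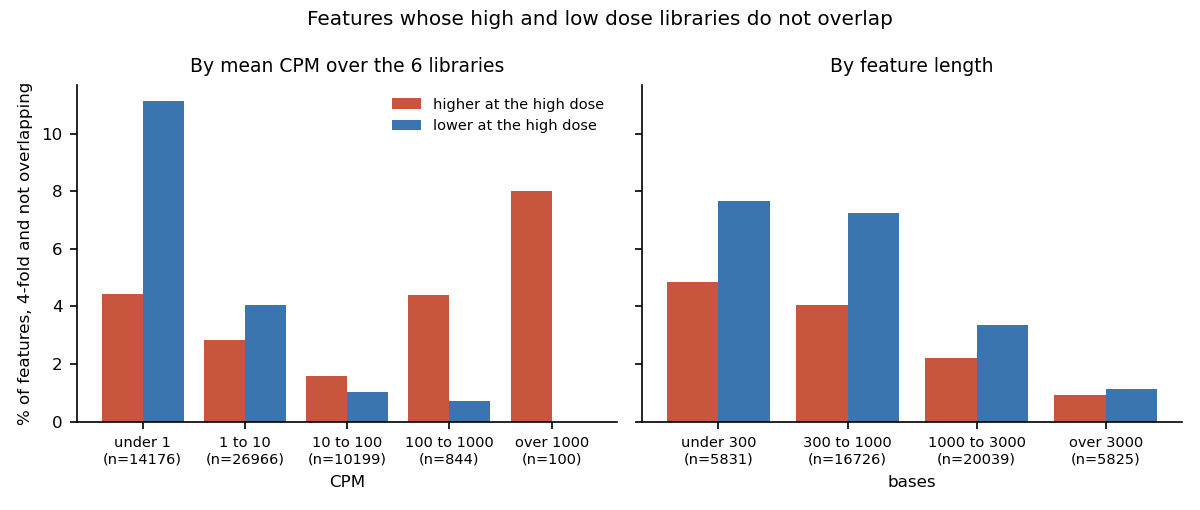
Percent of features whose 3 high dose libraries lie above (red) or below (blue) all 3 low dose libraries with a 4-fold difference of means, by mean CPM over the 6 libraries (left) and by feature length in bases (right); n is the number of features in each class. The lower side leads among scarce features, at 11.1% under 1 CPM, and the higher side above 1000 CPM, at 8%. The CPM classes and the count filter use the same 6 libraries that are compared.

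The assembly puts related features in components, and the doses sometimes differed in which member of a component was counted. In 108 of the 10200 components with 2 or more members tested, 1 member was 4-fold higher and another 4-fold lower at the high dose, without overlap. All components with 2 or more members tested, not the 108 alone, held 864 of the 1601 4-fold higher and 1480 of the 2787 4-fold lower features. They held 24225 of the 52285 features tested. Whether 108 is more than unrelated members would give was not tested. Summed over the members tested, 70 of the 108 components (64.8%) overlapped between the doses and 38 did not, of which 11 stayed 4-fold apart. Over all features, 24.7% did not overlap and 8.39% were 4-fold apart without overlap. In component DN97773_c4, DN97773_c4_g2 was near 0 at the low dose as given above, while DN97773_c4_g4 stood at 693, 208 and 685 CPM in low dose gut 1, 2 and 3 and at 132, 4.32 and 126 CPM in high dose gut 1, 2 and 3. In component DN84791_c4, DN84791_c4_g4 had 0, 406 and 0 counts at the low dose and 1877, 836 and 2151 at the high dose, and DN84791_c4_g2 had 5093, 250 and 5367 at the low dose and 0 in all 3 high dose guts. Both components were chosen after their values were seen. How reads were shared among the members of a component is not given in the sources used here, so values of single members are uncertain.

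Worms that shared a dose also differed from each other in many features. At a threshold of 10-fold, and of 20 CPM in each library on the higher side, 191 features separated the low dose worms (0.365%), 69 higher in low dose 2 (0.132%) and 122 lower (0.233%), and 361 separated the high dose worms (0.69%). Pairs of single worms from different doses were separated by 248 (0.474%), 402 (0.769%), 214 (0.409%) and 371 (0.71%) features. The 2 larger numbers of these 4 were those with high dose 2. Within a pair of 1 worm the number was 0 for low dose 1 and 3 and 9 (0.0172%) for high dose 1 and 3. Features that separated all 3 high dose from all 3 low dose libraries by this rule numbered 27 (0.0516%), 14 higher (0.0268%) and 13 lower (0.0249%).

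**Figure D4:**
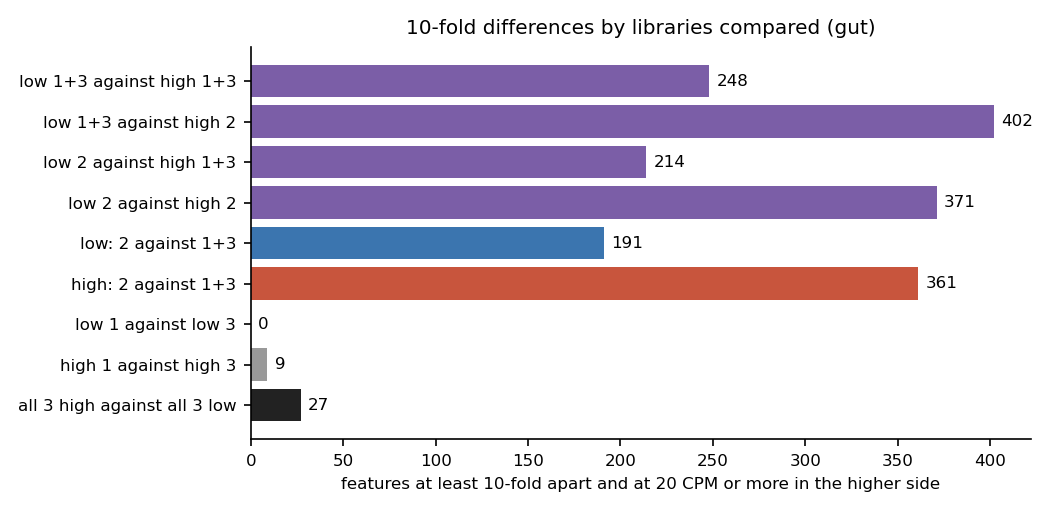
Number of features at least 10-fold apart, with 20 CPM or more in each library on the higher side, for each set of gut libraries compared; purple bars compare 1 worm of each dose, blue and red bars the 2 worms of 1 dose, grey bars 2 libraries of 1 worm, and the black bar all libraries of both doses. Within-dose bars of 191 and 361 stand beside between-dose bars of 214 to 402, and the black bar is 27.

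For these 27 features the control guts fell on either side. Of the 14 higher at the high dose, both controls stood at 10 CPM or more in 5, both under 1 CPM in 4, and 1 on each side in 3. Of the 13 lower, the numbers were 3, 3 and 4. Besides the features named above, DN69829_c0_g1 and DN76289_c6_g3 were at 0 in low dose gut and DN85030_c1_g2 and DN88027_c1_g2 at 0 in high dose gut, chosen after their values were seen. DN69829_c0_g1 stood at 29.9, 26.8 and 37.8 CPM in the high dose guts and DN76289_c6_g3 at 42.4, 66.4 and 47.6 CPM. DN69829_c0_g1 stood higher in the control guts, at 60.4 and 56.4 CPM, than in any high dose gut, and DN76289_c6_g3 stood at 43.9 and 35.6 CPM there. DN85030_c1_g2 stood at 24.1, 28.6 and 22.9 CPM and DN88027_c1_g2 at 28.3, 21.6 and 26.0 CPM in the low dose guts, with 0 counts in both control guts.

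High dose gut 2 carried a group of features that were far lower in the other high dose worm. In 177 features (0.339%) it stood at 20 CPM or more and at least 10 times above high dose 1 and 3, while 184 (0.352%) went the other way, and 63 of the 177 had 1000 counts or more. Those 63 took 3.52% of its counts, 0.170% of high dose 1, 0.0351% of high dose 3 and 0.0876% to 0.115% of the low dose guts. None was at 0 in high dose 1 or 3. The count in high dose 1 was 3.34% of that in high dose 2 at the median, with quartiles of 3.03% and 3.68%. In high dose 3 it was 0.710% at the median, with quartiles of 0.632% and 0.954%. High dose 1 thus stood at a higher share than high dose 3 although both match as 1 worm.

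The most abundant of the 63, DN93986_c0_g7, had 3636, 108850 and 793 counts in high dose gut 1, 2 and 3 and 1, 0 and 2 in the low dose guts. In control gut 2 and 3 it had 1 and 57765 counts, so abundance at that level was seen without the drug. Of the 63, 35 were at 0 in all 3 low dose guts and 45 had 10 counts or fewer in each. They supplied 51 of the 1601 features higher at the high dose by 4-fold without overlap (3.19%), 10 of the 49 at 0 at the low dose and 3 of the 14 separated by 10-fold, and 1550 and 39 remained of the first 2 counts without them. Whether counts passed from library to library, in preparation or in sequencing, was not tested, neither here nor for the features at 0 in 1 dose, the features without overlap and the differences within and between doses given above.

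**Figure D5:**
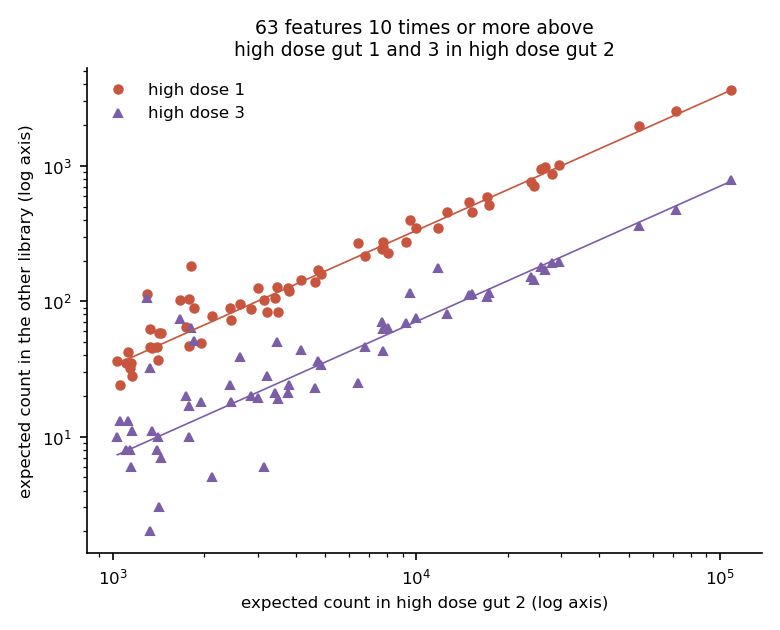
Expected count in high dose gut 1 (red circles) and high dose gut 3 (purple triangles) against that in high dose gut 2 for the 63 features with 1000 counts or more in high dose 2 and at least 10 times above both others, on log axes; lines mark the median shares of 3.34% and 0.710%. The points run along both lines over the range of counts up to 108850, with more scatter at low counts.

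The same was looked at for every pair of exposed gut libraries. For features with 1000 counts or more in 1 library and at least 10 times fewer CPM in a library of another worm, 10 of 357 were at 0 in the second library when both libraries had the same dose label, counted over 8 ordered pairs. When the dose labels differed, 286 of 816 were at 0, over 18 ordered pairs. In 6 of the 8 pairs of 1 dose none was at 0, and in none of the 18 pairs of different doses was that so. The pairs were not alike. Low dose 2 held 4.38% of the count of low dose 1 at the median over 25 such features, with 0 of them at 0. Of the features high in low dose 2, in turn, 5 of 16 were at 0 in low dose 1 and 5 of 14 in low dose 3, more often than in the high dose libraries, where 1 of 14, 2 of 56 and 2 of 14 were at 0. Libraries share features between these counts, so they are not independent.

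High dose 1 and 3, otherwise alike, parted in 9 features by the 10-fold rule, 5 higher in high dose 1 and 4 higher in high dose 3. The latter 4 together held 0.00467% of the counts in high dose 1 and 0.151% in high dose 3. In low dose gut 1, 2 and 3 the share was 0.146%, 0.145% and 0.114%, in high dose 2 it was 0.187%, and in control gut 2 and 3 it was 0.00124% and 0.181%. None of the 4 lay in the 4-fold sets above, since the doses overlapped in them.

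Ganglia that matched no exposed gut library gave a view of the same features in worms taken as others. Ganglion high dose 3 stood above ganglion low dose 3 in 46.8% of the 556 measured features that were 4-fold higher in high dose gut, and in 52.9% of the 626 that were 4-fold lower. Over all 28888 features measured there the share was 49.3%. For the 14 features higher by 10-fold, 5 had 20 counts or more in both of these ganglia, 3 in ganglion high dose 3 alone, 0 in ganglion low dose 3 alone and 6 in neither. For the 13 lower, the numbers were 2, 2, 0 and 9. Each of these shares compares 1 library with 1 library and has no replicate.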

How the data were processed

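Per the labels, poly(A) libraries of gut and cerebral ganglion were sequenced on an Illumina HiSeq instrument and assembled de novo. CASAVA and DESeq2 appear in the submitters' processing notes, with no role or version, and the sources used here give neither the counting program nor the assembly settings. Expected counts, that is estimated and unscaled counts per assembled gene, were deposited by the authors, and so were FPKM values, which are scaled to feature length and library size.

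Expected counts were rounded, features with 10 or more counts in at least 2 of the 6 exposed gut libraries were kept, and TMM factors were computed. The main test was edgeR's two-sided quasi-likelihood F test (edgeR 4.0.16, limma 3.58.1, R 4.3.3) with low dose 1 and 3 averaged, high dose 1 and 3 averaged, 1 coefficient per dose and no block. P-values were adjusted over every feature kept by the Benjamini-Hochberg method, with calls at an adjusted p under 0.05. The SE is the log2 fold divided by the square root of F. DESeq2 1.42.0 and limma on log2(FPKM + 1) and log2(FPKM + 0.1) were alternatives. CPM values use TMM factors over the 8 gut libraries, or over the 9 ganglia. Feature length is the median ratio of count to FPKM where counts reach 20. Floors of 3 counts per library cover counting error only. Libraries were taken as 1 worm where presence, at 5 counts or more, correlated above 0.6 with the same ganglion library. The features used had 30 counts or more in a library and no count in another, in gut and in ganglion alike.

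The features named are, per direction, the 2 of smallest p, the 2 at 0 in 1 dose with the highest lowest-library CPM in the other, and the 2 most abundant that do not overlap and differ 2-fold, and in addition the 4 most abundant in control gut. Members, lists and tests were chosen with earlier results of these data known. Equal replicate numbers did not pair the libraries.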

Additional observations from a re-analysis of the deposited data

How the results depend on the processing

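The number of features called was 0 with edgeR on averaged pairs. It was 403 with 6 separate libraries, 3258 with no filter on low counts (1763 higher, 1495 lower, 2.46% of 132409), 912 with DESeq2 on averaged pairs and 4564 with DESeq2 on 6 libraries, and the cause was not tested. It was 0 with 5 samples, with the control guts added, with RLE or upper quartile scaling, with library totals, with filterByExpr, with limma on FPKM at either pseudocount, and without any 1 library or averaged pair. With 1 sample left in a dose group, that sample is assumed to vary like the other group. Fitted with the replicate number as a block, 6 separate libraries gave 0 calls, with a smallest adjusted p of 0.0615. Equal numbers did not pair the libraries, since deviations of same-numbered libraries correlated at 0.0287, 0.0144 and -0.00972, and not every library correlated best with its own number. The 8 named features of smallest p or at 0 in a dose kept their direction in all 21 alternatives and were each called in 4 of them. DN76330_c0_g1 changed direction in 5 and was called in 0.

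Features 4-fold apart without overlap numbered 4388. The number was 7747 at 2-fold, 2987 at 8-fold, 5167 on FPKM, 4739 with both pairs averaged and 5092 with 1 library of each worm, and 4508 to 7595 with a library left out. Features at 0 in 1 dose numbered 122, and 302 and 59 at 20 and 100 counts, which only moves the minimum. The gut-restricted share kept its direction, with a difference of 10.3 to 19.7 percentage points with a library left out and 15.0 without the feature of highest count. The ganglion-restricted share turned, from 0.00796 to -0.113 percentage points for a set at 5 CPM and 5 times, and ran from -0.0228 without high dose 2 to 0.0158 without low dose 2. Library totals, averaged pairs and 1 library of each worm for the counts without overlap, the set without its feature of highest count, and the minimums of 20 and 100 counts were chosen after the data were seen.

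Depth limits the scarce features: 3 counts per library are 0.177 CPM in low dose and 0.229 CPM in high dose gut.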
